A study of Mus musculus with 2 samples.

Results

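Lysosomal cathepsins are the proteases that break down proteins in the acidic compartments of the cell. The genes described here are Ctsb, Ctsc, Ctsd, Ctsh, Ctsl and Ctsz, which are 6 of the 4331 genes that had a probe annotated to them alone. Each of the 6 was measured by 1 probe. They were chosen by name as a protease family, with no cut-off on a measured value, though earlier results of these data were known when the family was picked.

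The arrays compared spleen gamma delta T cells that carried CD5, a T cell surface glycoprotein, between wildtype mice and mice of the LAT3YF genotype. LAT is the adaptor protein through which the T cell receptor reaches its signalling enzymes, and in the mutant allele tyrosines of LAT are replaced by phenylalanines. In both genotypes the cells were enriched on magnetic beads against CD5 and sorted on a FACSDiva, per the labels, and strain, age, treatment and the number of animals are not stated there. The 2 arrays each carried total RNA of both populations in separate channels, with the dyes exchanged, and are called the + polarity and the - polarity array.

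Nothing in the labels gives the arrays separate animals or extracts, so the pair counted as 1 replicate. The populations therefore have no replicate check, no test was made, and every SD below is over the 2 arrays and covers technical error alone. Values are log10 ratios of the 2 populations, with the - polarity array turned in sign so that both arrays run the same way. A negative value marks transcripts that were higher in 1 population throughout, and a positive value those higher in the other. The labels do not settle which sign belongs to LAT3YF, so no statement below assigns a side to a genotype. A ratio shows no level, so the labelled cell type could not be checked by the presence of its markers.

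Most cathepsins are cysteine proteases of the papain family, whereas cathepsin D is an aspartic protease. All are made as inactive precursors, sorted to endosomes and lysosomes and activated there by removal of a propeptide. Macrophages hold large amounts of them for digesting engulfed cells, antigen-presenting cells use several to trim the invariant chain and antigens for MHC class II, and cytotoxic lymphocytes need cathepsin C to activate granzymes.

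All 6 genes had negative ratios on both arrays, and Ctsl and Ctsh stood out from the other 4. Ctsl was at -0.571 ± 0.022 (SD over 2 arrays, 3.72-fold) and Ctsh at -0.535 ± 0.16 (3.43-fold), while the other 4 lay between -0.260 and -0.103. A gene was called when its mean ratio was at least 2-fold (0.301 on the log10 scale) with the same sign on both arrays, which is a rule of size and not a test. Ctsl and Ctsh were called negative, 2 of 6, and no member positive, against 5.03% of all 4331 genes called negative and 8.75% called in either direction by the same rule. A negative ratio on both arrays was seen in 6 of 6, against 29.3% of all genes. The median of the 6 was -0.215, beside 0.0023 for all genes. Folds hold if the deposited values are log10, which is not stated with them. Read as log2, the ratio of Ctsl would be 1.49-fold, and neither gene would reach 2-fold.

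**Figure D1:**
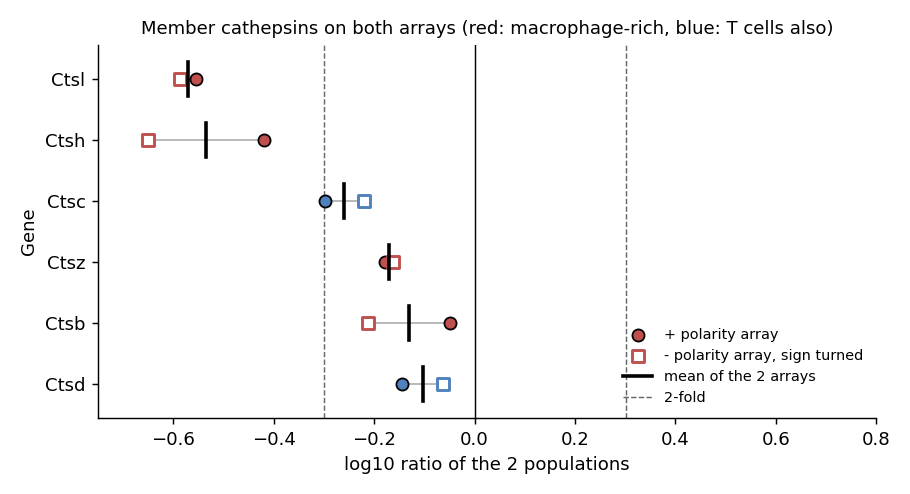
Log10 ratio of the 2 populations (x axis) for each member gene (y axis), with a filled circle for the + polarity array, an open square for the turned - polarity array and a bar for their mean. Dashed lines mark 2-fold. Ctsl and Ctsh lie beyond the negative line on both arrays, and the other 4 lie between it and 0.

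The endopeptidases, which cut inside a protein chain, included both the largest and the smallest ratio of the family. Ctsl encodes cathepsin L, a strong endopeptidase that also degrades the invariant chain in thymic cortical epithelium. Its ratio was -0.555 (+ polarity) and -0.587 (- polarity). The arrays thus gave nearly the same value, and 67 of the 4331 genes had a lower mean. Ctsd encodes cathepsin D, the aspartic protease of the group and one of the main lysosomal proteases of most cells. It was at -0.144 (+ polarity) and -0.0623 (- polarity), a mean of -0.103 ± 0.058 (1.27-fold), the smallest of the 6. Ctsb encodes cathepsin B, which acts both as an endopeptidase and by removing dipeptides from the carboxyl end. It gave -0.0492 (+ polarity) and -0.213 (- polarity), a mean of -0.131 ± 0.12 (1.35-fold). The ratio lay close to 0 on the + polarity array, and the SD was nearly as large as the mean.

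The exopeptidases, which trim protein ends, were led by Ctsh. It encodes cathepsin H, an aminopeptidase that is also known for processing surfactant protein in the lung. Ctsh was at -0.419 on the + polarity array (2.62-fold) and -0.651 on the - polarity array (4.47-fold). Both values passed 2-fold, but their SD of 0.16 was the largest of the 6. Ctsc encodes cathepsin C, or dipeptidyl peptidase I, which removes the activation dipeptide from granzymes and from serine proteases of neutrophils and mast cells. It was at -0.299 (+ polarity) and -0.221 (- polarity), with a mean of -0.260 ± 0.055 (1.82-fold), so it passed a threshold of 1.5-fold but not of 2-fold. At 1.5-fold, 3 of 6 members were called negative, against 9.44% of all genes. Ctsz encodes cathepsin X, a carboxypeptidase that is also active at the surface of leukocytes. Its values were -0.178 (+ polarity) and -0.162 (- polarity), a mean of -0.170 ± 0.011 (1.48-fold), which gives it the smallest SD of the 6.

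The order of the ratios, from the most negative, was Ctsl, Ctsh, Ctsc, Ctsz, Ctsb and Ctsd. Ctsl and Ctsh did not differ beyond their spread, since both Ctsl values lay between the values of Ctsh. Ctsc lay apart from Ctsh on both arrays, with a difference of 0.120 (+ polarity) and 0.430 (- polarity). Ctsc and Ctsz also did not overlap, although on the - polarity array they were 0.0583 apart. Ctsb overlapped with both of its neighbours: the Ctsz values lay between those of Ctsb, and Ctsb and Ctsd changed order between the arrays. Ctsz was lower than Ctsd on both arrays, so these 2 did not overlap. These are differences in ratio and say nothing of which gene had the higher level.

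The part of each ratio that changed sign with the dyes differed among the members. This dye component, taken as the difference between the turned array values divided by 2, was 0.116 in size for Ctsh, 0.082 for Ctsb, 0.0408 for Ctsd, 0.0391 for Ctsc, 0.0159 for Ctsl and 0.0081 for Ctsz. The median size over all genes was 0.0410. It exceeded that median in Ctsh and Ctsb. The component is computed from the same difference between the arrays as the SD, so it gives no separate information. With a single array per polarity, a dye effect and other array error cannot be told apart.

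**Figure D2:**
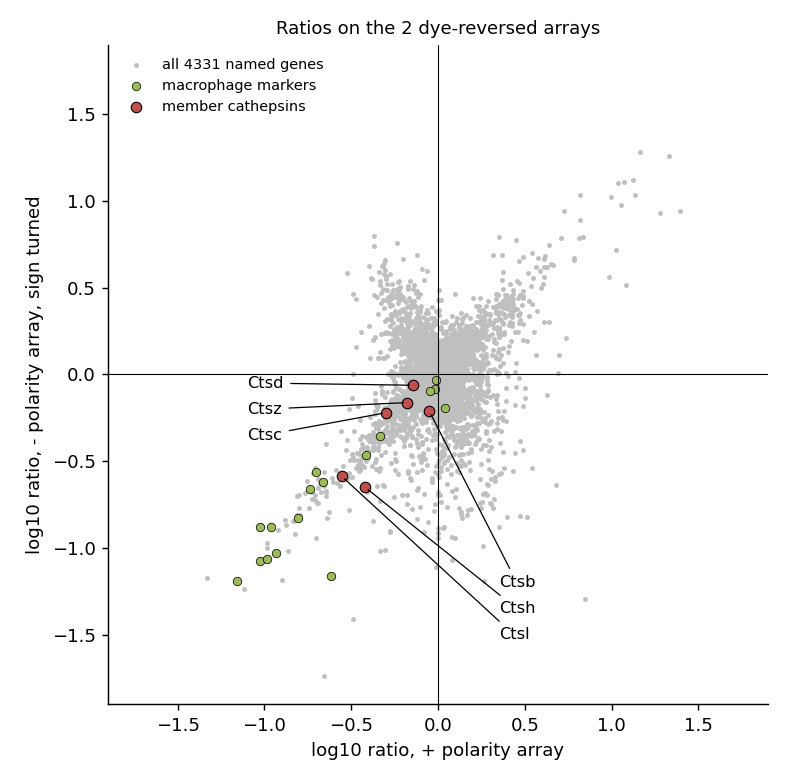
Log10 ratio on the + polarity array (x axis) against the turned ratio on the - polarity array (y axis) for all 4331 genes (grey), the 17 measured macrophage markers (green) and the 6 member cathepsins (red, named). All 6 members lie in the lower left corner, where both arrays are negative, and 11 of the 17 macrophage markers have a more negative mean than Ctsl.

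Members known mainly from macrophages were set beside those that T cells are also known to express. The split came from general knowledge and is not sharp: Ctsb, Ctsh, Ctsl and Ctsz were placed in the macrophage-rich class, and Ctsc and Ctsd in the class that T cells also express. The macrophage-rich class ran from -0.571 to -0.131 with a median of -0.353, and the other class from -0.260 to -0.103 with a median of -0.181. The classes overlapped, since Ctsz and Ctsb had smaller ratios than Ctsc. The difference between the medians was -0.171 for the mean of the arrays, -0.0773 (+ polarity) and -0.259 (- polarity). It rested on the placing of Ctsl: with Ctsl, which activated T cells can also express, in the second class the difference was 0.0893, in the opposite direction. With Ctsz moved instead it was -0.365. The data show 2 genes with larger ratios, Ctsl and Ctsh, and no order between the classes that holds under each placing tried.

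Markers of macrophages lay on the same side as the cathepsins and mostly had larger ratios. Of 17 measured macrophage markers, 13 were called negative, against 5.03% of all genes, and none positive. Their median was -0.697, with a range from -1.17 to -0.0221. The defining marker Adgre1, the F4/80 antigen, was at -1.05 ± 0.035 (11.2-fold), and Spic, the transcription factor of red pulp macrophages, at -0.922 ± 0.058, whereas Csf1r and Cd68 were not analysed here. The 4 markers not called lay near 0: Itgam (-0.0221 ± 0.012), Msr1 (-0.0503 ± 0.051), Axl (-0.0704 ± 0.037) and Mertk (-0.0762 ± 0.17). Mertk had opposite signs on the arrays. Of the 17 markers, 11 had a more negative mean than Ctsl and Ctsh, and 13 a more negative mean than each of the other 4 members. The part of the macrophage markers in the cathepsin ratios was not tested. In RNA of whole sorted populations, fewer cells of a type and less RNA per cell cannot be told apart.

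Markers of other cell types had smaller median ratios than the macrophage markers, apart from NK cell markers. Of 12 measured B cell markers, 4 were called negative and none positive, where the rule called 5.03% and 3.72% of all genes. Their median was -0.231, beside -0.215 for the 6 members. The called genes were Ighm, the immunoglobulin mu chain (-0.719 ± 0.031, 5.23-fold), Cd72 (-0.568 ± 0.024), Blnk (-0.505 ± 0.069) and Cd79b (-0.482 ± 0.065), a chain of the B cell receptor complex. The defining genes Cd79a (-0.217 ± 0.15) and Ms4a1 (-0.174 ± 0.022), which encodes CD20, were not called. Among 8 dendritic cell markers 1 was called negative, the integrin gene Itgax (-0.649 ± 0.010), which macrophages also express, and the median was -0.0561, with -0.116 (+ polarity alone) and -0.0115 (- polarity alone). Of 6 neutrophil markers none was called in either direction by the rule of size, with a median of 0.0135 that was -0.0262 on the + polarity array alone. NK cell markers, whose cells express Ctsc and Ctsw, had 4 of 5 called negative with a median of -0.731, but Ncr1, their defining marker, was at -0.0723 ± 0.031. The called genes were Klrd1 (-0.979 ± 0.012), Klrb1c (-0.755 ± 0.081), Klra1 (-0.731 ± 0.13) and Klrk1 (-0.400 ± 0.22). They encode receptors that NK cells and some gamma delta T cells can both carry, and the source of their ratios was not tested. Erythroid and platelet markers had 2 of 5 called negative with a median of -0.153. That median was -0.0878 (+ polarity alone) and -0.543 (- polarity alone); on the latter 4 of 5 were called negative. T cell markers had 2 of 12 called positive, Cd5 (0.614 ± 0.0077), the gene of the sorting marker, and Cd6 (0.402 ± 0.079). Their median was 0.103, while Lat itself was at 0.179 ± 0.010, Cd3e was at 0.110 ± 0.10 and Cd3g at 0.0954 ± 0.025. Of the 12 T cell markers, 9 had a mean above 0, opposite to the cathepsins, and 3 below 0, against 48.8% of all genes below 0. Among the 9, Thy1 (0.0890 ± 0.17) had opposite signs on the arrays. The 3 below 0 were Cd27 (-0.207 ± 0.029), Cd247, the CD3 zeta chain (-0.185 ± 0.13), and Cd3d (-0.0074 ± 0.0063), none of them called. The part of these cell types in the cathepsin ratios was not tested.

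The other cathepsin genes lay on both sides. Of 12 further cathepsin genes measured, 1 was called negative (5.03% of all genes) and 1 was called positive (3.72% of all genes). Their median was -0.0507, with -0.0792 (+ polarity alone) and -0.0888 (- polarity alone). With the - polarity array alone 3 were called positive. With the + polarity array alone 2 were called negative. Ctsf, a papain-family cathepsin, was called negative at -0.451 ± 0.10 (2.83-fold). Ctss, the cathepsin of antigen-presenting cells that degrades the invariant chain, was at -0.310 (+ polarity) and -0.268 (- polarity), a mean of -0.289 ± 0.030 (1.94-fold) just short of the threshold. Ctsw, a cathepsin made in NK cells and cytotoxic T cells, was at -0.218 ± 0.0052 (1.65-fold), close to the ratio of Ctsc. Its values on the 2 arrays were almost the same.

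Ctse was the exception in direction. It encodes cathepsin E, an aspartic protease like cathepsin D but found in endosomes rather than lysosomes, and it was called positive at 0.721 ± 0.091 (5.26-fold), with 0.785 (+ polarity) and 0.656 (- polarity). The aspartic cathepsins Ctsd and Ctse thus lay on opposite sides. Ctsa, the protective protein of lysosomal galactosidase, was at -0.0543 ± 0.049, and Ctso at -0.105 ± 0.10. Ctsk, the collagen-degrading cathepsin of osteoclasts, was at 0.0717 ± 0.13 with opposite signs on the arrays. Ctsg, a serine protease of neutrophil granules despite its name, was at -0.0471 ± 0.16, again with opposite signs, over 3 probes that ranged from -0.161 to 0.0375. The placental cathepsins Ctsj (0.0258 ± 0.13), Cts6 (0.0660 ± 0.49) and Ctsm (0.181 ± 0.43) had opposite signs on the arrays, and Ctsr was at -0.139 ± 0.19. They are close relatives whose probes may share signal, and their SDs of up to 0.49 show how far a ratio could vary between the arrays.

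**Figure D3:**
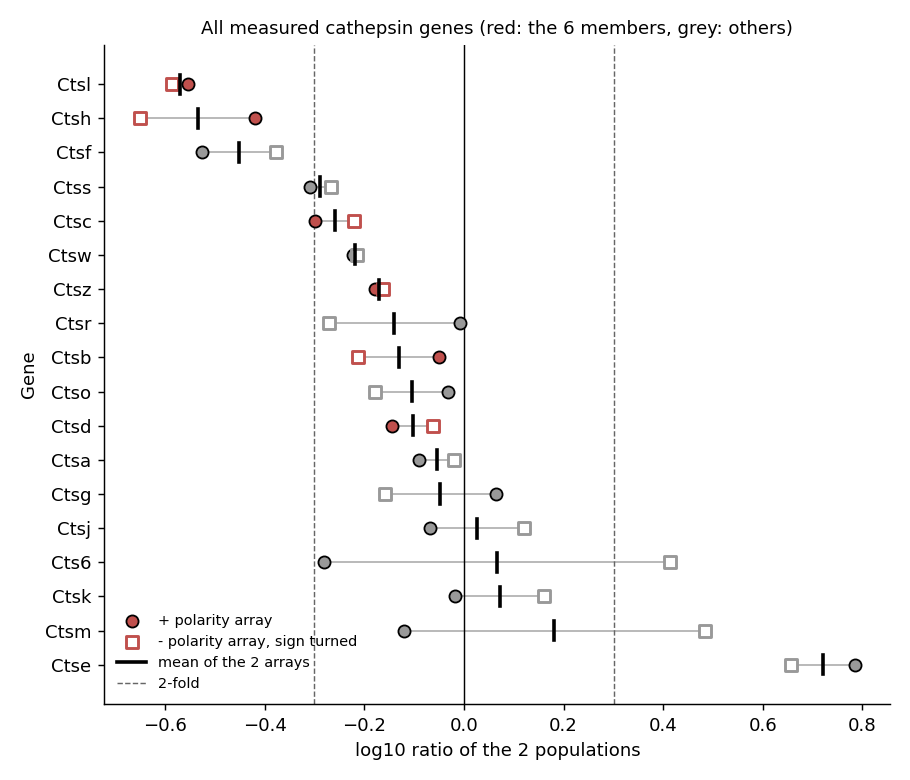
Log10 ratio of the 2 populations (x axis) for the 18 measured cathepsin genes (y axis) in order of their mean, with a filled circle for the + polarity array, an open square for the turned - polarity array and a bar for the mean. Members are red and other cathepsins grey. Of the 18 genes, 12 were negative on both arrays and 1, Ctse, was positive on both, against 29.3% and 30.2% of all genes.

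Most of the other lysosomal genes measured also had negative means. Together, 50 other lysosomal genes were measured, counting the 12 cathepsins just described. Of these, 8 (16%) were called negative, against 5.03% of all genes, and 1 positive. Their median was -0.0632, and 39 (78%) had a mean below 0, against 48.8% of all genes. A negative ratio on both arrays, seen in all members, was found in 26 of the 50, against 29.3% of all genes. Among the 12 cathepsins it was found in 6. Among 13 lysosomal hydrolases and their helpers, 3 were called negative and none positive, with a median of -0.0935. The median was -0.167 (+ polarity alone) and -0.243 (- polarity alone), while the members had medians of -0.239 and -0.217. The called genes were Lipa, the acid lipase, at -0.498 ± 0.069 (3.15-fold), Grn, which encodes progranulin, at -0.353 ± 0.027, and Psap, the precursor of the saposins, at -0.322 ± 0.060. Of the other lysosomal peptidases 2 were measured, with a median of -0.307: Cpq, a carboxypeptidase, was called negative at -0.486 ± 0.051, and Napsa, an aspartic protease, was at -0.128 ± 0.0033.

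Genes of the lysosomal membrane and its proton pump showed 2 of 12 called negative and none positive, with a median of -0.0782. The rule called 5.03% of all genes negative. Of the 12, 11 had a mean below 0, against 48.8% of all genes. Slc11a1, the metal transporter of macrophage phagosomes, was at -0.820 ± 0.023 (6.61-fold), and Npc1, which exports cholesterol from lysosomes, at -0.325 ± 0.0092. Of the membrane glycoproteins of the lysosome, Lamp1 (-0.0289 ± 0.075) and Lamp2 (-0.0015 ± 0.0074) were near 0. Among 11 genes of lysosomal sorting and regulation 1 was called negative, Tfec at -0.316 ± 0.26, a transcription factor made in macrophages. Its ratio was -0.497 (+ polarity) but -0.135 (- polarity). The call was lost where each array had to pass 2-fold. The median of that list was -0.0411, with 0.0151 (+ polarity alone) and -0.0921 (- polarity alone). The mannose 6-phosphate receptor genes, which carry new cathepsins to the lysosome, were not called: M6pr was at 0.0883 ± 0.056 and Igf2r at -0.0507 ± 0.027. Lamp1 and Lamp2 thus had smaller mean ratios than each of the 6 cathepsins. Scarb2 (-0.179 ± 0.054) and Atp6ap2 (-0.165 ± 0.033), of the same membrane list, were more negative than Ctsb and Ctsd.

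**Figure D4:**
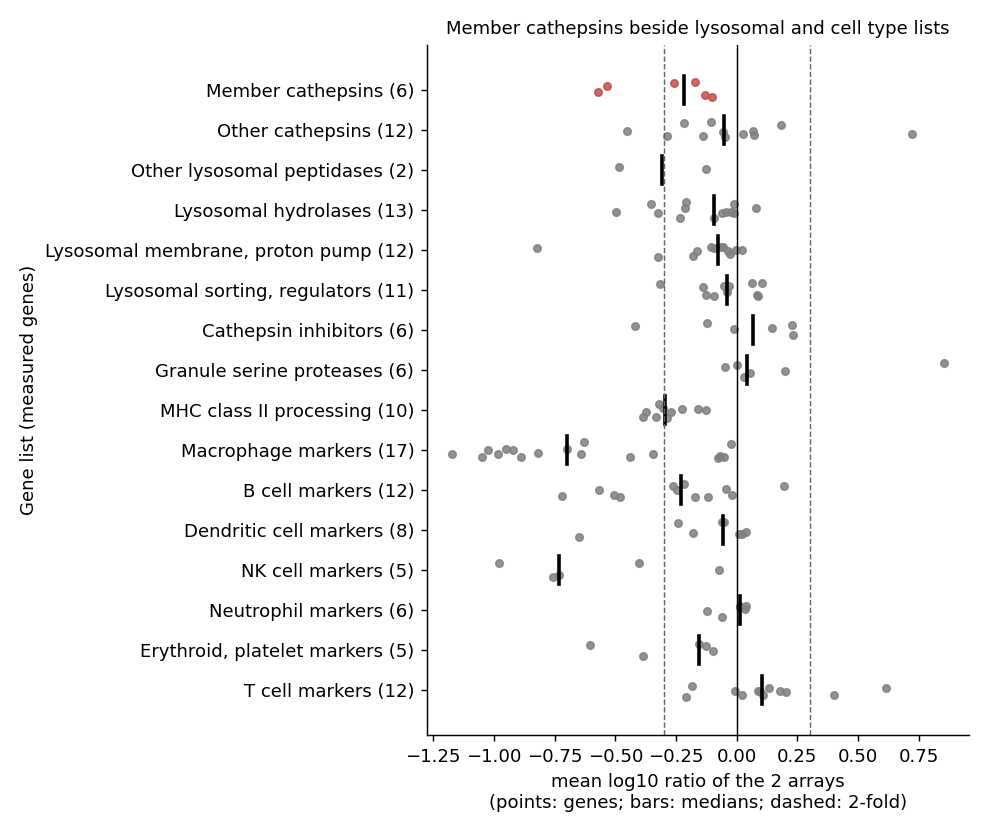
Mean log10 ratio of the 2 arrays (x axis) for each measured gene of the member cathepsins and of the 15 gene lists (y axis, number of measured genes in brackets). Points are genes, bars are medians and dashed lines mark 2-fold. The member median is -0.215 and that of the macrophage markers -0.697. The lysosomal hydrolases have -0.0935 in these means but -0.243 on the - polarity array alone, beyond the members' -0.217 there.

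Partners of single members gave values on both sides. Of 10 measured genes of MHC class II processing, in which Ctsl and Ctss act and with Ctss counted among them, 5 were called negative and none positive, with a median of -0.296. The count was 3 with the + polarity array alone and 2 where each array had to pass 2-fold. Over all genes the rule called 5.03% negative and 3.72% positive. Cd74, the invariant chain that these cathepsins cut, was at -0.303 ± 0.039 (2.01-fold), and H2-DMb1 led the list at -0.385 ± 0.0098. H2-Ob (-0.372 ± 0.28), H2-Eb1 (-0.331 ± 0.013) and H2-Aa (-0.319 ± 0.087) were also called. Cathepsin C activates a family of granule serine proteases, of which 6 were measured, with Ctsg counted among them. Gzmb was called positive at 0.854 ± 0.053 (7.14-fold) and none was called negative. Their median was 0.0416, with 0.0090 (+ polarity alone) and 0.167 (- polarity alone). Most genes of the list had opposite signs on the arrays. Gzmb and Ctsc, its activating protease, thus lay on opposite sides on both arrays. Inhibitors of cathepsins and related proteases had 1 of 6 called negative and none positive, with a median of 0.0669 that was 0.0498 (+ polarity alone) and 0.0095 (- polarity alone). The negative gene was Serpinb1a at -0.420 ± 0.092, whose 2 probes differed at -0.151 and -0.689, and the call was lost with the probe of smaller ratio. Cst7, which encodes cystatin F, an inhibitor of cathepsin C in cytotoxic cells, was at 0.233 ± 0.024 (1.71-fold), and Cst3, the secreted cystatin C, was at -0.0106 ± 0.024.

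The genes closest to Ctsl, the member with the largest ratio, came from several lineages. Likeness was the straight-line distance over the 2 array values, outside the family, and rests on these 2 arrays. The nearest were Txk, a kinase of T cells (mean -0.568, distance 0.0172), the predicted gene Gm15133 (-0.555, distance 0.0401), Cd72, a B cell receptor (-0.568, distance 0.0462), Klra10, a Ly49 receptor (-0.540, distance 0.0474), and the predicted gene Gm11342 (-0.604, distance 0.0481).

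The promoter windows of the members were searched for the letters bound by TFEB and its relatives, the factors that drive many lysosomal genes. The windows are from RefSeq (GRCm38.p6), hold 300 bases from 250 before to 50 after a transcription start, and were at hand for 4 of the 6 genes, Ctsc, Ctsd, Ctsl and Ctsz. The core CACGTG, which reads the same on both strands, was found in the windows of Ctsd and Ctsl and not in those of Ctsc and Ctsz. They are shown because they set the member with the largest ratio beside the one with the smallest. In the sequences below, written 5′ to 3′ on the gene's strand, capitals mark the core.
Ctsl, chr13:64370741-64370766, minus strand: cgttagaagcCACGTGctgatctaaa
Ctsd, chr7:142387910-142387935, minus strand: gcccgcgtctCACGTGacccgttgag
Ctsd, chr7:142388057-142388077, minus strand: tccccCACGTGacctgtatcc
The start used for Ctsl lies inside the RefSeq gene model, so these bases may be transcribed. The core occurs in 7.15% of the 32851 windows in the table and in 9.03% of the 4376 windows of genes measured here. The longer form TCACGTGA, which contains the core, was found at the Ctsd site 98 bases before the start and in no other window of the 4. It occurs in 0.974% of all windows and in 1.46% of those of genes measured here. Ctsd, with 2 cores, had a mean ratio of -0.103, and Ctsl, with 1, had -0.571. A match of letters is a description and no site of binding. Of the factors themselves, Tfeb had opposite signs on the arrays (-0.0929 ± 0.43), Tfe3 was at 0.103 ± 0.069 and Mitf at -0.139 ± 0.0018, none of these 3 called. Their relative Tfec was called negative, as given above (-0.316 ± 0.26).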

How the data were processed

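Total RNA of both populations was hybridised to 2 dye-reversed 2-colour arrays, per the labels. The authors deposited 1 log ratio per probe and array, read here as log10; its base and numerator, like the scanner, background correction and normalization, are not stated in the labels or the table. The deposited columns had medians of -0.00284 and 0.00101 and correlated at r = -0.301 across the 8014 probes. Exact agreement of dye-reversed arrays would give -1, so over all probes the arrays agreed only weakly. After turning, 29.3% of genes were negative and 30.2% positive on both arrays. The - polarity array was multiplied by -1 and the arrays were averaged (numpy 2.4.6, pandas 2.3.3). Of the probes, 4654 were annotated to 1 gene, 73 to several and 3287 to none in the table used; gene identifiers of 4640 were found in RefSeq (GRCm38.p6) and 0 symbols needed updating. A gene's value was the mean over its probes. No intensities, detection calls or weights were used, so the number of arrays limits the precision. The code of the call rule was run on simulated data with planted changes larger than the threshold and normally distributed noise. That setting is easier than these arrays, so it gives no error rate for the calls made here.

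The members, the 15 gene lists and the member classes were chosen with earlier results of these data known. The rule for naming allowed all measured cathepsins, up to 4 called genes per list and sign, up to 3 genes of lists without calls, and the 5 genes nearest to Ctsl. Named outside this rule, after their values were seen or as background, were Cst3, Cst7, Lamp1, Lamp2, Scarb2, Atp6ap2, M6pr, Igf2r, Napsa, Cd74 and the TFEB family. So were the markers Spic, Itgam, Msr1, Axl, Mertk, Cd79a, Ms4a1, Ncr1, Cd27, Cd247, Cd3d, Cd3e, Cd3g and Thy1. Lat was named as a check. Of called genes that the rule allows, some macrophage and erythroid markers are given by count alone. Neutrophil markers, a list without calls, are given by count and median alone. Promoter motifs were also chosen then. Alternatives covered single arrays, centring, scaling, probe summaries, a filter on dye effects, thresholds, log bases and member classes.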

Additional observations from a re-analysis of the deposited data

How the results depend on the processing

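Each of the 6 members had a negative ratio on either array alone and with centred or scaled arrays, and Ctsh and Ctsl remained the 2 members called there. Probe summaries and the filter on dye effects could not move the members, which have 1 probe each and a dye component under 2-fold, and leaving out 1 of 2 arrays cannot move a mean beyond its SD. The same 2 were called at 3-fold and with each array past 2-fold, and Ctsc joined them at 1.5-fold. With the values read as log2 or natural logs, 0 members were called. Over all genes the count of calls, 379, was 452 with the + polarity array alone and 742 with the - polarity array alone, 774 at 1.5-fold, 144 at 3-fold, 62 as natural logs and 17 as log2. A different threshold or base sets these counts by construction. The difference between the member classes was -0.0773 to -0.259 with 1 array left out, -0.365 with Ctsz moved and 0.0893 with Ctsl moved to the class that T cells also express. Medians of the sorting list (0.0151) and of the neutrophil markers (-0.0262) changed sign with the + polarity array alone, and the report gives the single-array medians of the other lists where they moved by over 1.5 times. Single arrays also moved the counts of calls in several lists by 1 or 2 genes. Each value is a ratio within an array and so already pairs the populations. No test of them was possible because the 2 arrays are a dye reversal that counts as 1 replicate. Signal over background was not analysed here, so a ratio near 0 may come from a dim probe.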
